A study of Mus musculus with 45 samples.

Results

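The CCN genes and their companions in the YAP pathway were followed in mouse neural progenitors on the way to induced pluripotent stem cells. The set was given as 8 gene symbols, Ccn1, Ccn2, Ccn3, Ccn4, Ccn5, Ankrd1, Amotl2 and Tead1, and 7 of these 8 had a row among the 23575 genes of the deposited gene table. Ccn3 was not analysed here. RNA was read as long cDNA on Oxford Nanopore flow cells in 45 libraries, 22 of an R9 series (direct cDNA of poly(A)-enriched RNA) and 23 of an R10 series (PCR cDNA). Gene levels are read counts scaled to a common depth (CPM), and 1 read was worth 0.236 to 2.23 CPM, depending on the library.

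All progenitors derived from Oct4-GFP embryonic stem cells of the line O4G. They were wild type (WT) or carried a stably transfected, doxycycline-inducible factor set, with the genotypes OKMS-Luciferase-AS and OKS-Luciferase-AS, which differ by Myc in name. The progenitors (day 0) grew in NPC medium, a serum-free N2B27 base with EGF, FGF-2 and heparin, on Geltrex. They gave 4 R9 libraries (2 WT, 1 OKMS, 1 OKS) and 4 R10 libraries of the same makeup. For induction, cells were seeded on gelatin with a little serum and a day later received a medium of fetal bovine serum and LIF with doxycycline added (FBS-LIF + dox, called serum from here on). WT cells treated in this way for 2 days were the control that does not reprogram (1 R9 and 2 R10 libraries). In serum, OKMS and OKS cells were read at days 2, 4, 6, 10, 14 and 20 in R9 (a single library for each). The R10 days were 2, 6 and 18, plus 4 and 10 for OKMS. Cells that changed to 2i-LIF, serum-free N2B27 with LIF and inhibitors of GSK3 and MEK, gave 3 R9 libraries (OKMS day 14, both systems day 20; moved at day 6) and 2 R10 libraries (day 18; the day of the move is not given). Embryonic stem cells in 2i-LIF were of the lines O4G and R1 (R9, 1 library each) and O4G, R1 and R1-Clone3 (R10, 7 libraries). Coating, base medium, serum, LIF and doxycycline changed together at induction and cannot be told apart.

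YAP and TAZ are transcriptional coactivators that enter the nucleus when the Hippo kinases are off, as in spread cells or cells given serum, and act there through the DNA-binding TEAD proteins. CCN proteins are secreted into the matrix, where they bind integrins and other receptors. Ccn1 and Ccn2 are textbook YAP-TEAD target genes, Ccn4 and Ccn5 are better known as genes induced by Wnt, and Ccn5 lacks the C-terminal domain of the others. Ankrd1, an ankyrin-repeat protein of muscle sarcomeres and nuclei, is another common YAP reporter. Amotl2, an angiomotin, is both a target of YAP and a protein that holds YAP back, and Tead1 is one of the DNA-binding partners.

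The TEAD motif was looked for in the 250 bases before the RefSeq start of each member, in sequences of GRCm38.p6, because it is the site through which YAP reaches a gene. Entries were at hand for Ccn1, Amotl2 and Ankrd1. Capitals mark GGAATG or its reverse complement CATTCC, and each sequence runs 5′ to 3′ on the strand of its gene, up to the base before the RefSeq start.
Ccn1, chr3:145649986-145650235, minus strand: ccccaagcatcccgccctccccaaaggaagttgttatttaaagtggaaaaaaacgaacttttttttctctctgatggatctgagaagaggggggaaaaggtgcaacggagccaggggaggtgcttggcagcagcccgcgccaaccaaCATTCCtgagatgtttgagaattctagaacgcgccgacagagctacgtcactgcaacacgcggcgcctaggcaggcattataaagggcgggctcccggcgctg
Amotl2, chr9:102717554-102717803, plus strand: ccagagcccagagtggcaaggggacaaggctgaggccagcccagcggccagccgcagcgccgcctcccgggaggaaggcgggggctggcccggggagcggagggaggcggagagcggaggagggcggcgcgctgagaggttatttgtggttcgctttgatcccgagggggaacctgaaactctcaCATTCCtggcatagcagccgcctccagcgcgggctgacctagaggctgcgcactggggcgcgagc
Ankrd1, chr19:36119845-36120094, minus strand: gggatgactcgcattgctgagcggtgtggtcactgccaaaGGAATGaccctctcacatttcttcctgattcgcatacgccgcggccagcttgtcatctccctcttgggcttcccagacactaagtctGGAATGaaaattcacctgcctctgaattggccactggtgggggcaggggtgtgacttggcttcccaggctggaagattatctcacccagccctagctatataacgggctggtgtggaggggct
The Ccn1 and the Amotl2 stretch held 1 match each, ending 98 and 60 bases before that start. The Ankrd1 stretch held 2, ending 205 and 118 bases before it. RefSeq starts need not be the starts used in these cells: all 250 bases of the Amotl2 and the Ankrd1 stretch lie inside the gene in GENCODE, whose starts are 1132 and 255 bases further upstream. The Amotl2 match and 1 of the 2 Ankrd1 matches also lie inside the span of the deposited transcripts, so these 2 stretches are not upstream of every transcript, while the Ccn1 match lies outside both spans. Of 32851 promoters of this length, 4153 (12.6%) held the motif on either strand and 336 (1.02%) held 2 or more. No match of this kind is a measured binding site.

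In GENCODE M21 on GRCm38, the build of the files, Ccn1 lies at chr3:145646976-145649981 (minus strand), Ccn2 at chr10:24595442-24598683 (plus), Ccn4 at chr15:66891320-66923201 (plus) and Ccn5 at chr2:163820861-163833146 (plus). Ankrd1 lies at chr19:36111961-36120099 (minus), Amotl2 at chr9:102716672-102733418 (plus) and Tead1 at chr7:112679318-112906807 (plus). Ccn1, Ccn2 and Tead1 were above 0 in all 45 libraries, Amotl2 in 44, Ccn4 in 32, Ccn5 in 28 and Ankrd1 in 15. Ccn2 spanned the widest range, from 1.27 to 1979 CPM with a median of 58.3 CPM, and Ccn1 ran from 1.89 to 1491 CPM. Tead1 ran from 27.4 to 157 CPM.

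The libraries held 447990 to 1390424 reads on genes in R9 (median 814717.5) and 566599 to 4236442 in R10 (median 2342551). In R10 the mitochondrial share of reads was 0.153 to 0.319% in the 4 WT libraries, treated and untreated, 1.51 to 1.64% in the factor libraries of day 2 and 1.56 to 2.04% in those of day 18. The labels do not say that replicates were separate cultures, so p-values measure the spread between these libraries only. Nor do they say whether a single RNA preparation went into both an R9 and an R10 library, so the 2 series may not be independent samples. In bulk RNA, more cells of one kind and more RNA per cell cannot be told apart. Neural progenitor markers (Nes, Fabp7, Pax6, Sox2, Olig2) summed to 3258 to 5649 CPM in all progenitor libraries against 86.4 to 174 CPM in 2i-LIF and stem cells. Pluripotency markers (Pou5f1, Nanog, Esrrb, Zfp42, Dppa5a, Tdh) summed to 9800 to 15721 CPM in 2i-LIF and 11001 to 13551 CPM in R10 stem cells. Sox2 and Pou5f1 (Oct4) are also factors of both sets. The sums of OKMS and OKS cells may thus hold reads of the added genes, which was not tested.

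The first question was what the change of medium does without factors. In untreated WT progenitors the CCN genes were close to silent, and after 2 days in serum Ccn5 and Ccn1 stood at 318 to 463 CPM in R10. Ccn5 read 0.953 and 0.574 CPM in the 2 untreated R10 libraries and 463 and 338 CPM in the 2 treated ones. Ccn1 read 5.40 and 7.75 CPM before and 349.6 and 318 CPM after. Both genes were thus higher in both treated libraries than in both untreated ones, and the share of all genes without overlap was not counted.

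Ccn2 rose less, from 1.27 and 1.43 CPM to 45.8 and 58.3 CPM. Ccn4 went from 0.318 and 0.861 CPM, which is 1 and 3 reads, to 4.70 and 22.4 CPM, so its treated libraries lay far from each other. Amotl2 went from 7.62 and 1.72 CPM to 200.04 and 95.9 CPM. Tead1 read 55.6 and 51.1 CPM before and 92.0 and 66.5 CPM after. Ankrd1 was at 0 in all 4 libraries, where 3 reads over the treated pair would have been 0.537 CPM.

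Levels were compared as log2(CPM + 1) with limma, and a gene was called at an adjusted p under 0.05 with a difference of at least 1. The pseudocount shrinks differences of genes with few reads. Of the 6 members that passed the filter on low values, 5 were called higher in serum. Ccn4 and Ccn5 were under 1 CPM in both untreated libraries, so they passed it only through the treated ones and could only differ upward. Among all 14688 genes tested, 26.8% were called, 14.9% of them higher and 11.9% lower as shares of the genes tested. The log2 difference was 7.82 ± 0.31 (SE; limma adjusted p = 0.00078) for Ccn5 and 5.48 ± 0.26 (0.000971) for Ccn1. It was 4.85 ± 0.64 (limma adjusted p = 0.00585) for Amotl2, 4.49 ± 0.36 (0.00195) for Ccn2 and 2.88 ± 0.73 (0.0356) for Ccn4. The difference of Tead1, 0.55 ± 0.25, did not pass (limma adjusted p = 0.155). With 2 libraries a side, leaving out either untreated library or treated replicate 2 ended all 5 calls and left no gene of the whole table called. There 4 or 5 of the 6 members had an unadjusted p under 0.05, as had 20.2 to 35.3% of all genes. Without treated replicate 3, Ccn1, Ccn2 and Ccn5 were still called, among 7.04% of all genes. The differences themselves stayed at 7.60 to 8.05 for Ccn5, 5.26 to 5.71 for Ccn1 and 4.32 to 4.66 for Ccn2, with wider ranges for Amotl2 (4.02 to 5.68) and Ccn4 (1.86 to 3.90). Under quantile normalization Ccn4 was no longer called (adjusted p = 0.0811).

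The R9 series, with 1 treated and 2 untreated WT libraries, gave differences in the same direction. Ccn5 stood at 279 CPM against 0 and 0, at least 165-fold higher with 3 reads over the untreated pair as the floor. Ccn1 stood at 385 CPM against 5.35 and 5.81, and Amotl2 at 177 CPM against 5.35 and 5.81. These 3 had limma adjusted p-values of 0.0282, 0.0206 and 0.0372 and were called, as were 9.40% of all 16625 genes. The single treated library gives no spread of its own, and the fit assumes that it varies like the untreated pair. Ccn5, at 0 in that pair, passed the filter only through the treated library and could only be called upward. Ccn2, at 299.9 CPM against 4.01 and 5.81, had a log2 difference of 5.69 that did not pass (limma adjusted p = 0.0626). Ccn4 read 29.7 CPM against 1.34 and 0 (difference 4.33, adjusted p = 0.184). The difference between the R10 and R9 medium effects passed for no member tested (limma adjusted p 0.913 to 0.998) and for none of the 14674 genes, so it says little about the members.

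**Figure D1:**
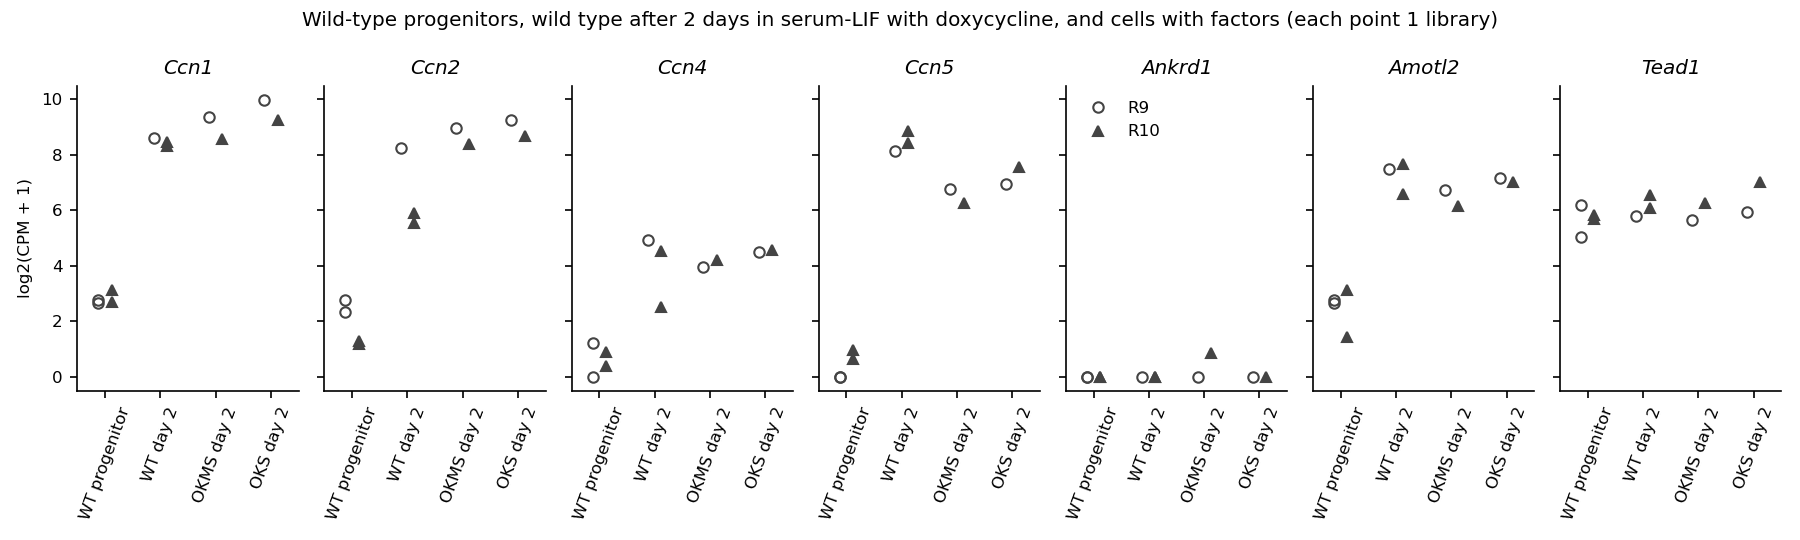
Level of each member as log2(CPM + 1) in WT progenitors, WT cells after 2 days in serum with doxycycline, and OKMS and OKS cells at day 2; each point is 1 library and the marker shape gives the chemistry. Ccn5 is highest in the WT day 2 libraries (279 to 463 CPM), while the R10 WT day 2 libraries sit below all factor libraries for Ccn2 (45.8 and 58.3 CPM against 330.4 to 603 CPM).

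Per length, as the sum of the deposited transcript TPM, Ccn5 and Ccn1 led the treated R10 WT cells, with 176 to 274 and 215 to 231 TPM. Their ranges overlap. Amotl2 (30.7 to 151 TPM), Tead1 (19.6 to 33.3) and Ccn2 (24.5 to 25.2) followed, and the range of Tead1 overlaps with those of Amotl2 and Ccn2, so these 3 have no clear order beyond Amotl2 lying above Ccn2. In progenitors the order was another one: Tead1 led with 11.6 to 17.2 TPM in R10, ahead of Ccn1 with 1.97 to 8.32 TPM.

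Other genes of the pathway were counted on lists of known genes. Of 19 YAP target genes tested that are not members, 11 were called higher in serum and 1 lower, and their median difference was 2.03 (log2), beside 0.12 over all genes. The largest differences among them were those of F3, which starts blood clotting (3.72), Gadd45b, a stress response gene (3.58), Ccdc80, a matrix protein (3.56), and Nuak2, an AMPK-related kinase (3.12). Of 26 Hippo pathway genes, 7 were called higher and 2 lower (median 0.65), led by the TEAD gene Tead3 (2.71), the scaffold genes Wwc1 (2.04) and Wwc2 (1.77), and the kinase gene Lats2 (2.03), which stands on both lists. Of 9 CCN receptor genes, 3 were called higher and none lower (median 0.58): the integrin gene Itgb5 (2.68), the syndecan gene Sdc4 (1.62) and Lrp1 (1.52). Of 14 SRF and TGF-beta target genes, 9 were called higher and none lower (median 2.52), led by the contractile genes Acta2 (5.99), Tagln (4.60) and Myl9 (4.35) and by Junb (3.75). Beside the 26.8% called among all genes, the shares of the Hippo genes (9 of 26) and the receptors (3 of 9) were not far from the background.

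Markers of other cells moved with the medium as well. The summed level of 3 smooth muscle markers (Cnn1, Acta2, Des) was 0.287 to 0.635 CPM in the untreated R10 WT libraries, with Cnn1 at 0, and 51.3 to 115 CPM in the treated ones. The treated sum is mostly Acta2 (mean 77.2 CPM), which also stands among the SRF targets. The 4 astrocyte markers (Gfap, Aqp4, S100b, Aldh1l1) summed to 42.6 to 93.3 CPM before, with Aqp4 at 0, and to 1188 to 3057 CPM after. The sum after is mostly Gfap (mean 5.44 to 2036 CPM). Of the 4, only Gfap and Aqp4 (0 to 28.6 CPM) were called. The 8 fibroblast and mesenchymal markers (Col1a1, Col1a2, Col3a1, Pdgfrb, Thy1, Dcn, Lum, Postn) summed to 7.94 to 32.4 CPM before and 43.5 to 155 CPM after, with Col1a2 at 0 in both. Neural progenitor markers were at 3947 to 5132 CPM before and 2376 to 5047 CPM after, and 2 of the 5 were called lower, Olig2 (mean 131 to 4.40 CPM, -4.62) and Nes (332 to 121 CPM, -1.47). The 4 endothelial markers (Pecam1, Cdh5, Kdr, Tek) summed to 1.91 to 3.44 and then 8.24 to 12.9 CPM with Cdh5 at 0 in both, and the 3 neuron markers (Tubb3, Map2, Rbfox3) to 214 to 312 and then 129 to 265 CPM, of which Tubb3 was called higher (3.82 to 12.8 CPM, 1.54). Their part in the result was not tested.

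The next question was how cells with factors differ from WT cells at day 2 in the same medium. This comparison uses the same treated WT libraries as the one above. Ccn2 was the only member called in it. It read 330.4 CPM in OKMS and 409 CPM in OKS cells in R10 against 45.8 and 58.3 CPM in WT cells, so the groups lay far apart. The R10 progenitors of these systems already differed in the same way before induction, with 8.79 CPM in OKMS and 12.9 CPM in OKS cells against 1.27 and 1.43 CPM in WT cells. The log2 difference was 2.81 ± 0.38 (limma adjusted p = 0.0129), 1 call among 6 members tested, where 0.740% of all 15402 genes were called (0.714% higher, 0.0260% lower). The difference of Ccn2 ran from 2.64 to 2.98 with each library left out in turn, and the call held only without WT replicate 2 (adjusted p = 0.0488, against 0.237 to 0.547 without OKMS, OKS or WT replicate 3). Under quantile normalization the limma adjusted p was 0.0533. Taken relative to the R10 progenitors, the change of Ccn2 to day 2 was 0.50 ± 0.45 larger with factors than in WT cells, which did not pass (limma unadjusted p = 0.292, adjusted p = 0.762), nor did any of the 16496 genes. This comparison was chosen after the data were seen.

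The R9 series did not show a difference of that size. There Ccn2 read 495 CPM in OKMS and 603 CPM in OKS cells against 299.9 CPM in the single WT library, a difference of 0.86 (limma adjusted p = 0.704). The difference between the R10 and R9 effects was 1.94 ± 0.53, with a limma unadjusted p of 0.00424 and a limma adjusted p of 1.00, and it passed for none of the 15637 genes. The treated WT libraries of R10 were at 45.8 and 58.3 CPM and the one of R9 at 299.9 CPM, while factor libraries of both series lay between 330.4 and 603 CPM. Before induction Ccn2 overlapped in R9, 1.35 and 6.75 CPM in OKMS and OKS against 4.01 and 5.81 CPM in WT progenitors. In R10 the mitochondrial share also differed between these arms (0.165 to 0.319% in treated WT, 1.51 to 1.64% with factors), and its part was not tested.

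Ccn5 went the other way. It read 76.7 CPM in OKMS and 185 CPM in OKS cells in R10, and both lay below the 463 and 338 CPM of WT cells. The difference of -1.72 ± 0.47 did not pass (limma adjusted p = 0.137). It did pass with median centring (-1.92, 0.0415), with DESeq2 (-1.74, 0.0233) and with both series fitted together as separate samples (-1.54, limma adjusted p = 0.0326). Of all genes, 2.59, 3.13 and 1.48% were called in these settings. Quantile normalization did not call it, and with each library left out in turn the difference ran from -2.35 to -1.09. In R9 Ccn5 stood at 108 and 123 CPM with factors against 279 CPM without.

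The others did not pass. Ccn1 read 383 and 615 CPM with factors against 349.6 and 318 CPM without (difference 0.54 ± 0.42, limma adjusted p = 0.576). Amotl2 overlapped, at 69.6 and 128 CPM against 200.04 and 95.9 CPM (-0.55 ± 0.47, limma adjusted p = 0.614), as did Ccn4, at 17.4 and 22.8 CPM against 4.70 and 22.4 CPM (0.86 ± 0.68, 0.582). Tead1 read 75.1 and 128 CPM against 92.0 and 66.5 CPM (0.32 ± 0.42, 0.751). Ankrd1 showed 1 read in the OKMS library and none in the OKS or WT libraries. No gene of the pathway lists was called by limma in this comparison. Of 19 YAP targets 4 had an unadjusted p under 0.05, as did 4 of 26 Hippo genes, 0 of 9 receptors and 7 of 15 SRF and TGF-beta targets. Among all genes 15.2% had such a p, so the YAP and Hippo counts are near the background. On these lists edgeR called 1, 0, 0 and 1 genes and DESeq2 2, 1, 0 and 1. The astrocyte markers summed to 164 to 633 CPM with factors and 1188 to 3057 CPM without, the smooth muscle markers to 232 to 260.1 CPM against 51.3 to 115 CPM, and the fibroblast markers to 95.6 to 324 CPM against 43.5 to 155 CPM. The astrocyte sum without factors is mostly Gfap, and none of these markers tested was called by limma. Their part was not tested.

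The time course in R9 followed the members over the days in serum. Day 0 is in NPC medium, and WT cells in serum were read at day 2 only. Differences from day 0 thus hold the change of medium as well as the factors, and these cannot be told apart here. Ccn1, Ccn2, Ccn4, Ccn5 and Amotl2 also rose in WT cells without factors by day 2. Ccn1, Ccn2, Ccn4, Ccn5 and Amotl2 were above day 0 at day 2 in both systems, Ccn5 was back at 0 at day 20, and Ankrd1 appeared late. In OKS cells Ccn2 went from 6.75 CPM at day 0 to 603, 1679, 1667, 1979, 1274 and 198 CPM at days 2, 4, 6, 10, 14 and 20. In OKMS cells it went from 1.35 CPM to 495, 348, 292, 345, 239.5 and 71.4 CPM. The highest OKMS library was thus that of day 2, and the highest OKS library that of day 10.

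Ccn1 had a similar course. In OKS cells it went from 8.43 CPM to 1008, 1491, 1279, 1169, 959 and 233 CPM, and in OKMS cells from 20.2 CPM to 658, 317, 337, 335, 287 and 43.1 CPM. Ccn5 in OKS cells went from 0 to 123, 351, 365, 310.1, 47.2 and 0 CPM. In OKMS cells it was at its highest at day 2, with 108 CPM, and then read 50.1, 25.9, 21.1, 3.17 and 0 CPM. Over days 2 to 20 the mean of Ccn5 was at least 207-fold (OKS) and at least 36.1-fold (OKMS) higher than in the 4 R9 progenitor libraries, all at 0, with 3 reads over these libraries as the floor. With the OKMS and OKS libraries of day 0 alone as the floor, these bounds were 88.8-fold and 15.5-fold.

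Amotl2 went from 0 to 142, 301, 199.5, 219, 102 and 57.5 CPM in OKS cells and from 2.69 to 106, 27.1, 47.8, 56.3, 39.0 and 18.5 CPM in OKMS cells. Ccn4 stayed between 6.47 and 23.8 CPM in OKS and between 2.81 and 14.7 CPM in OKMS cells after day 0, when both were at 0. Ankrd1 was at 0 in both systems at days 0, 2 and 4, with a single read each at day 6. At days 10, 14 and 20 it read 21.1, 12.7 and 7.39 CPM in OKMS cells and 2.23, 6.62 and 14.4 CPM in OKS cells. These levels are thin, from 1 to 20 reads a library.

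By limma's F test over the days, 6 of 7 members were called, all of them upward, against 10.7% of the 19357 genes tested (5.50% upward, 5.24% downward). With 1 library per system and day, these p-values and SEs measure how far the courses of OKMS and OKS differ. They do not measure the spread between replicate cultures. Ccn4, Ccn5 and Ankrd1 were at 0 at day 0, so they passed the filter only through later days and could only be called upward. The same holds for Amotl2, at 2.69 CPM in OKMS and 0 in OKS at day 0, which was too low to fall by 1. The day with the largest difference from day 0 was day 10 for Ccn2 (7.60 ± 0.46 on the log2 scale, limma adjusted p = 2.54e-05) and day 2 for Ccn1 (5.85 ± 0.66, 0.00124). It was day 4 for Ccn5 (7.07 ± 1.00, limma adjusted p = 0.00143), day 2 for Amotl2 (6.01 ± 0.87, 0.00689) and for Ccn4 (4.23 ± 0.74, 0.0259). Ankrd1 was largest at day 20 (3.51 ± 0.86, limma adjusted p = 0.0242). Tead1 differed most at day 4, by 0.91 ± 0.43, and did not pass (limma adjusted p = 0.511). Without the day 2 libraries Ccn4 (adjusted p = 0.0557) and Ankrd1 (0.0556) were no longer called, and without those of day 20 Ankrd1 was not (0.0649). At day 20 Ccn2 was still 4.82 and Amotl2 4.13 above day 0, Ccn1 2.84 and Ccn4 2.87, and Ccn5 was back at 0 reads.

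**Figure D2:**
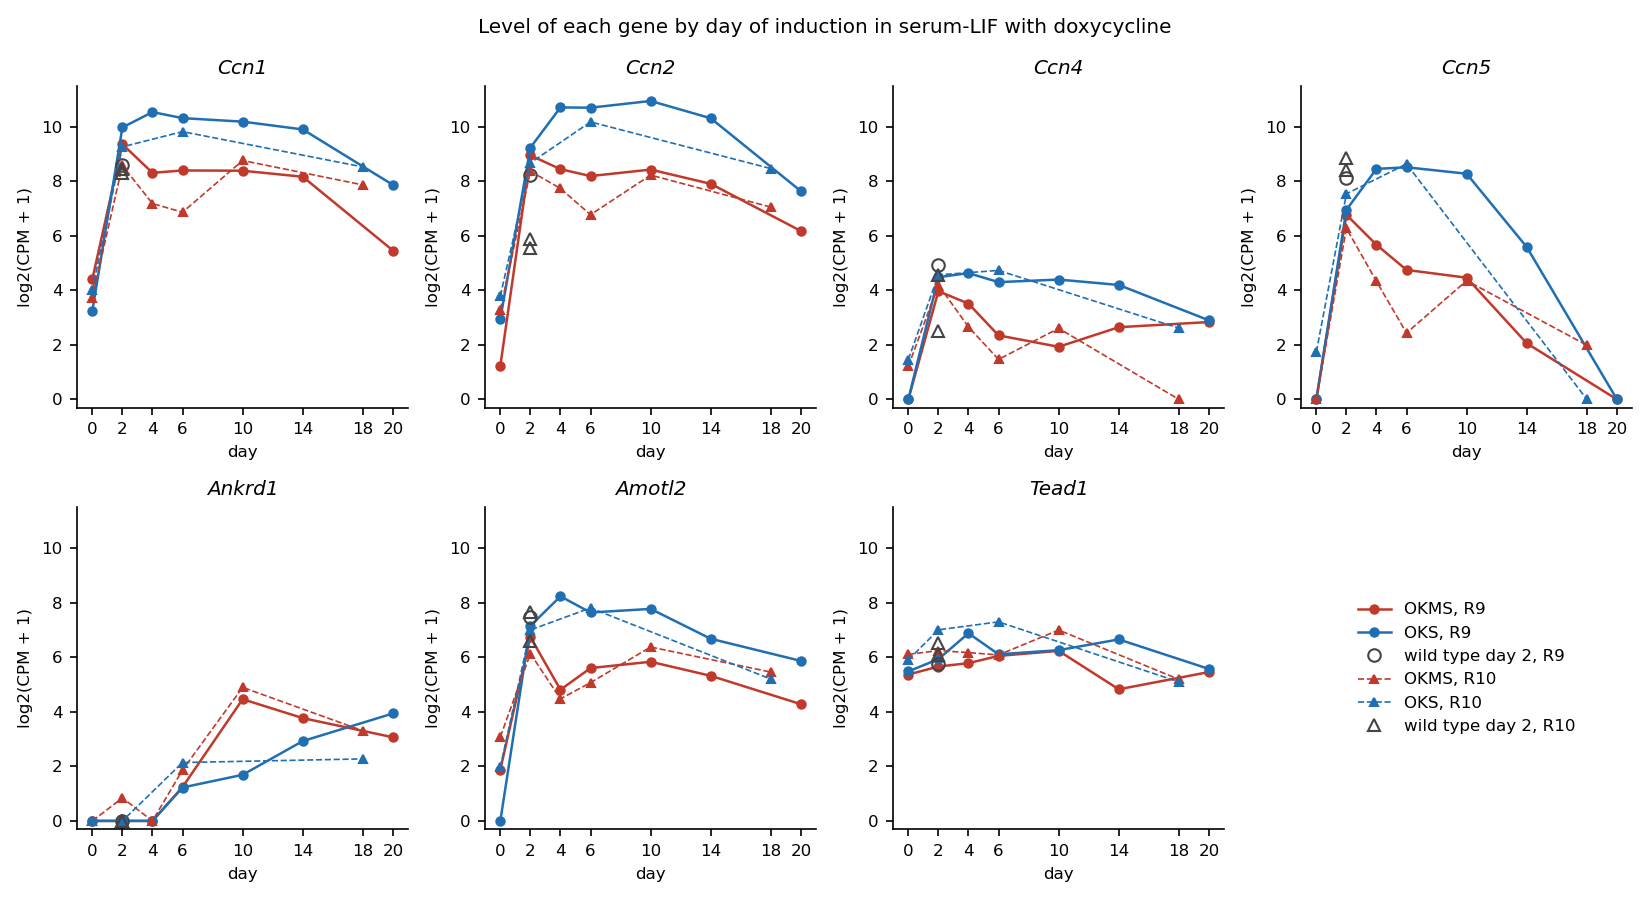
Level of each member as log2(CPM + 1) by day of induction in serum with doxycycline, with OKMS, OKS and WT cells in separate colours and R9 and R10 in separate line and marker styles; each point is 1 library. Ccn1, Ccn2, Ccn5 and Amotl2 stand high by day 2, OKS lies above OKMS from then on in R9 for all of them except Ccn5 at day 20, and Ankrd1 is above 0 from day 6 in R9.

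The order of the days was not the same in R10. Ccn2 in R10 OKMS cells read 330.4, 213, 109, 299.6 and 132 CPM at days 2, 4, 6, 10 and 18, and in OKS cells 409, 1160 and 353 CPM at days 2, 6 and 18. Ccn1 in R10 OKMS cells read 383, 145, 116, 434 and 233 CPM on these days, so its highest library was that of day 10, where in R9 it was that of day 2. Ankrd1 in R10 was at its highest in the OKMS library of day 10 as well, at 28.9 CPM from 34 reads. A fit of the R10 days alone called none of the members with limma (adjusted p 0.112 to 0.279 for the 6 called in R9), nor any of the 20374 genes tested. An unadjusted p under 0.05 was found for 4 of the 7 members and for 23.3% of all genes.

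Among the lists, read against the 10.7% of all genes called, 12 of 19 YAP target genes changed upward over the R9 course and 1 downward, with a median largest day difference of 2.54 against 0.63 over all genes. Gadd45b (5.59), Dock5 (4.73) and Nuak2 (4.21) rose, and Rbms3, an RNA-binding protein, fell by 4.76 by day 20. Of 27 Hippo genes 6 changed upward and 3 downward (median 0.24), with Tead4 (4.02) and Tead3 (3.79) ahead and Amotl1 lower by day 20 (-2.78). The receptors split, with 2 of 10 upward and 4 downward (median -1.21): Itgb5 rose by 3.08 by day 10, while Notch1 (-3.51), Itgav (-3.14) and Itga5 (-2.88) fell. Of 16 SRF and TGF-beta targets 9 changed upward and 1 downward (median 3.12), led by Acta2 (9.13), Tagln (7.84), Myl9 (6.25) and Junb (5.82). Median centring moved the median of all genes by -1.08 in this fit and quantile normalization by -0.18, and the list medians were not taken under either.

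Markers of cell types moved over these days too, where 5.50% of all genes were called upward and 5.24% downward. All 5 neural progenitor markers were called, 4 of them downward, with Fabp7 (-9.03) and Olig2 (-7.68) the largest, and Sox2 upward. Of 6 pluripotency markers 5 were called upward, with Pou5f1 (9.76) and Dppa5a (9.46) in front. Sox2 and Pou5f1 (Oct4) are themselves factors of both sets, and reads of the added and the native genes were not told apart. Summed, the former were at 4133 to 4238 CPM in the 2 libraries of day 0 and 133 to 4510 CPM from day 2 on, the latter at 10.8 to 30.4 and then 68.9 to 9440 CPM. Of 3 smooth muscle markers 2 were called upward, Acta2 (9.13) and Des (4.77), and the sum went from 0 to 1.69 CPM, with Cnn1 and Des at 0, to 83.7 to 2308 CPM. Of 8 fibroblast and mesenchymal markers 2 were called upward, Col1a1 (5.60) and Postn (3.36), with sums of 28.3 to 60.7 and then 17.2 to 156 CPM. Astrocyte and neuron markers split: Gfap (7.22, largest at day 2) and Tubb3 (5.80) were called upward, S100b (-6.56) and Map2 (-4.90) downward. None of 4 endothelial markers was called by limma (1 had an unadjusted p under 0.05), while edgeR called 2 and DESeq2 0. Their part in the course of the members was not tested.

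OKMS and OKS cells were then compared over the 6 days after induction in R9, with day as a block. With 1 library per system and day, the p-values measure the spread over days and not between replicate cultures. Other differences between the OKMS and OKS populations cannot be told apart from Myc. OKS cells held more of each CCN gene measured, except for Ccn5 at day 20. The mitochondrial share was also higher in OKS on days 2 to 14 (0.570 to 0.990% against 0.337 to 0.708%, higher on each of these 5 days) and lower at day 20 (0.387 against 0.430%), and its part was not tested. The OKS level of Ccn1 was 1.53 to 5.40 times the OKMS level and higher on 6 of 6 days, and that of Ccn2 was 1.22 to 5.74 times, also on 6 of 6 days. Ccn5 was 1.13 to 14.9 times as high on 5 days and at 0 in both systems at day 20. Amotl2 was 1.33 to 11.1 times as high on 6 of 6 days and Ccn4 1.05 to 7.14 times on 6 of 6. The highest ratios of Ccn5 and Ccn4 rest on 3 and 2 OKMS reads, with exact 95% counting intervals (Clopper-Pearson, on the reads of both libraries) of 4.85 to 74.4 and 1.48 to 67.9.

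Of 7 members tested, 5 were called lower in OKMS, where 18% of all 14277 genes were called (6.93% higher and 11% lower in OKMS). The log2 difference of OKMS minus OKS was -1.78 ± 0.21 for Ccn1 (limma adjusted p = 0.000618), -1.91 ± 0.26 for Ccn2 (0.000888) and -1.79 ± 0.29 for Amotl2 (0.00151). It was -2.35 ± 0.49 for Ccn5 (limma adjusted p = 0.00448) and -1.28 ± 0.38 for Ccn4 (0.0242). The call of Ccn4 was lost without day 4, 6, 10 or 14 (adjusted p 0.0606 to 0.0854). With day 0 added, Ccn4 (limma adjusted p = 0.0552) and Amotl2 (0.0554) were no longer called. Median centring moved the median of all genes by 0.15 and the share of called genes that were higher in OKMS from 38.6 to 53.8% (48.2% with quantile normalization).

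Tead1 was higher in OKS on 6 of 6 days, by 1.02 to 3.65 times, but its difference of -0.57 ± 0.25 did not pass (limma adjusted p = 0.104). Ankrd1 had the opposite order at days 10 and 14 (21.1 and 12.7 CPM in OKMS, 2.23 and 6.62 CPM in OKS) and not at day 20 (7.39 against 14.4 CPM). Its difference of 0.46 ± 0.50 did not pass either (limma adjusted p = 0.518).

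**Figure D3:**
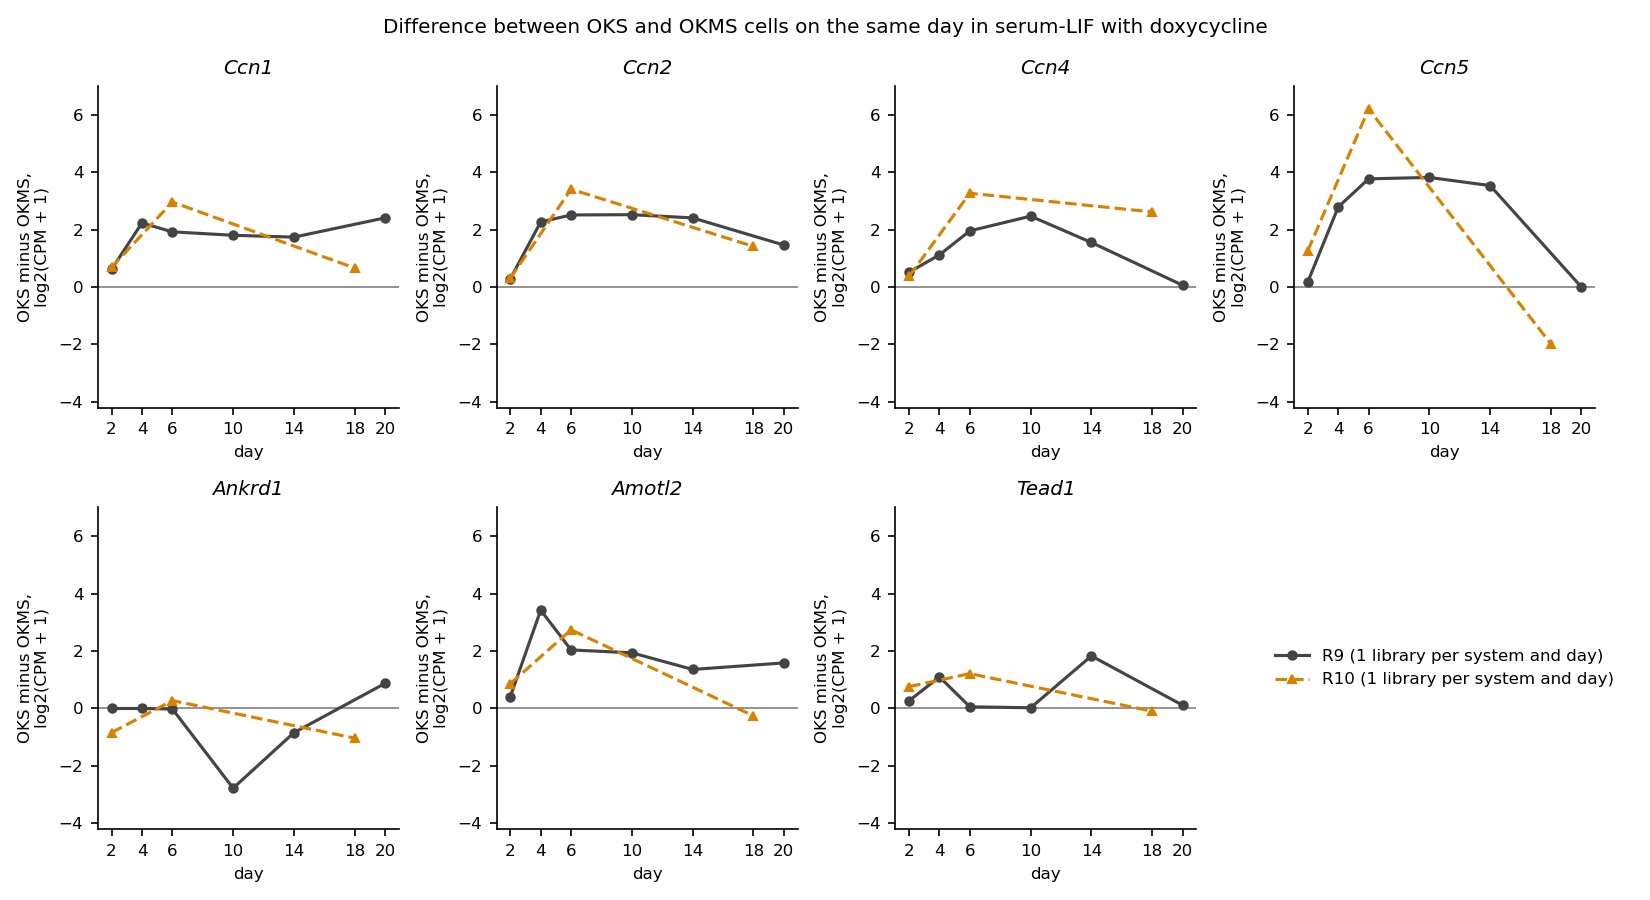
Difference between OKS and OKMS cells on the same day, as OKS minus OKMS in log2(CPM + 1), for each member in R9 and R10; each point is a pair of single libraries and a value above 0 means more in OKS. In R9 Ccn1, Ccn2, Ccn4 and Amotl2 lie above 0 on all 6 days, and the R10 points lie above 0 for these 4 at days 2 and 6.

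In R10 the same comparison has 3 days. At day 6 OKS cells held 7.84 times as much Ccn1, 10.7 times as much Ccn2, 6.85 times as much Amotl2 and 90.0 times as much Ccn5 (398 against 4.42 CPM, the latter from 5 reads). Ccn4 read 25.6 CPM in OKS against 1.77 CPM, or 2 reads, in OKMS, a ratio of 14.5 with an exact 95% counting interval of 3.84 to 122. At day 2 the ratios were 1.61 for Ccn1, 1.24 for Ccn2, 1.31 for Ccn4, 2.42 for Ccn5 and 1.83 for Amotl2. At day 18 Ccn1 (1.58) and Ccn2 (2.68) were higher in OKS and Amotl2 (0.833) was not. On that day Ccn5 read 2.97 CPM, or 2 reads, in OKMS and 0 in OKS. Ccn4 read 0 in OKMS and 5.12 CPM, or 4 reads, in OKS. A fit of these pairs called no member with limma (adjusted p 0.248 to 0.498 for the 5 called in R9), nor any of the 15135 genes tested. An unadjusted p under 0.05 was found for 3 of the 7 members and for 15.8% of all genes.

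List counts are read against the 18% of all genes called, 11% lower in OKMS. Of 19 YAP targets 9 were called lower in OKMS and none higher (median -1.14 against -0.11 over all genes), with the growth factor binder Igfbp3 (-3.24), Ccdc80 (-2.78), Rbms3 (-2.08) and Crim1 (-1.96) the largest. Of 27 Hippo genes 7 were lower and none higher (median -0.59), among them Wwc1 (-1.72), Lats2 (-1.70), Amotl1 (-1.42) and the TAZ gene Wwtr1 (-1.36). Of 10 receptors 2 were lower and none higher (median -0.80), Itgb1 (-1.23) and Itgb5 (-1.04), a share near that of all genes. Of 16 SRF and TGF-beta targets 9 were lower and none higher (median -1.22), with Fos (-2.17), Myl9 (-2.05), Junb (-1.90) and Acta2 (-1.75) in front. The smooth muscle markers summed to 83.7 to 479 CPM in OKMS and 364 to 2308 CPM in OKS. This sum is mostly Acta2, which also stands among the SRF targets, while Des was called the other way (mean 16.6 CPM in OKMS against 7.29 CPM in OKS, 1.74, limma adjusted p = 0.0458). The fibroblast markers summed to 17.2 to 107 and 81.7 to 156 CPM, the astrocyte markers to 3.69 to 162 and 5.75 to 290.1 CPM and the neural progenitor markers to 133 to 2379 and 182 to 4510 CPM. Both neuron markers tested were called, Map2 lower (-2.01) and Tubb3 higher (1.14) in OKMS. The pluripotency markers summed to 68.9 to 9440 CPM in OKMS (median 3036) and 83.0 to 8137 CPM in OKS (median 107). Their part in the result was not tested.

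Serum was set against 2i-LIF in 5 pairs of one system, day and series. Ccn1, Ccn2 and Ankrd1 were lower in 2i-LIF. Ccn1 read 287, 43.1, 233, 233 and 369 CPM in serum (R9 OKMS day 14, OKMS day 20, OKS day 20, R10 OKMS day 18, OKS day 18) and 14.7, 15.0, 15.1, 28.2 and 20.3 CPM in 2i-LIF. The 2i-LIF libraries thus lay close together and all below the lowest serum library, whose own partner it exceeded by 2.86 times. The other pairs reached up to 19.6 times.

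Ccn2 read 239.5, 71.4, 198, 132 and 353 CPM in serum and 58.6, 24.7, 16.3, 33.5 and 36.0 CPM in 2i-LIF in the same order, 2.89 to 12.2 times as much in serum. Ankrd1 read 12.7, 7.39, 14.4, 8.90 and 3.84 CPM in serum, and 1 read in OKMS day 14 was all of it in the 5 libraries of 2i-LIF. Neither gene overlapped between the media, and the share of all genes without overlap was not counted. Amotl2 and Tead1 did overlap: Amotl2 read 39.0, 18.5, 57.5, 43.0 and 35.9 CPM in serum and 47.6, 25.8, 23.3, 12.3 and 15.6 CPM in 2i-LIF.

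Of 6 members tested 3 were called lower in 2i-LIF, where 12.3% of 14935 genes were called (5.95% higher and 6.32% lower). Ankrd1 passed the filter only through its serum libraries, so it could only be called lower in 2i-LIF. The log2 difference of 2i-LIF minus serum was -3.33 ± 0.31 for Ccn1 (limma adjusted p = 1.96e-06), -2.45 ± 0.26 for Ccn2 (7.40e-06) and -3.04 ± 0.47 for Ankrd1 (0.000286). The 3 calls held with each pair left out. Ankrd1 was not called in the 2 R10 pairs alone (-2.79, limma adjusted p = 0.119). Amotl2 (-0.68 ± 0.32, limma adjusted p = 0.177), Ccn4 (-1.40 ± 0.69, 0.194) and Tead1 (0.17 ± 0.24, 0.721) did not pass. Ccn4 was at 0 in the 3 R9 libraries of 2i-LIF and at 5.28, 6.16 and 6.47 CPM in their serum partners (-2.80 in these pairs, adjusted p = 0.00931), but in R10 OKMS it read 0 in serum and 5.29 CPM, or 3 reads, in 2i-LIF. Without that pair it was called (-2.41, limma adjusted p = 0.00695). Ccn5 was too low in both media to be tested, at 3.17, 0, 0, 2.97 and 0 CPM in serum and 1.22, 0, 0, 0 and 6.26 CPM in 2i-LIF, or 4 reads at most.

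The change of Ccn2 was 1.58 ± 0.39 smaller in size in OKMS than in OKS pairs, which did not pass over all genes (limma adjusted p = 0.426). The difference between the systems passed for no other member (limma adjusted p 0.835 to 0.999), and 6 of all 15985 genes passed. Serum libraries and 2i-LIF libraries also differed in doxycycline, which is not listed for 2i-LIF, in the base medium and in the inhibitors of GSK3 and MEK. These cannot be told apart from serum itself.

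**Figure D4:**
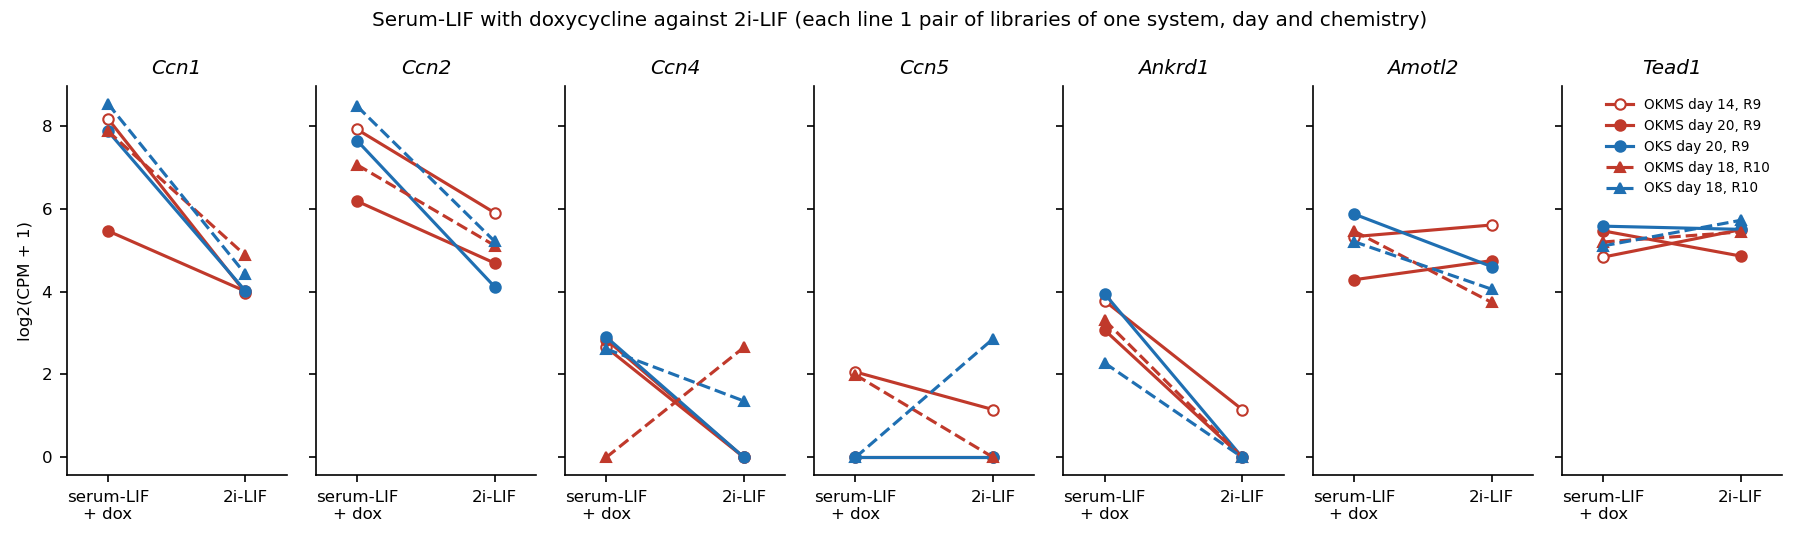
Level of each member as log2(CPM + 1) in serum with doxycycline and in 2i-LIF, with a line for each of the 5 pairs of one system, day and series. All 5 lines fall for Ccn1, Ccn2 and Ankrd1, whereas Amotl2 and Tead1 have lines in both directions.

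Of 18 YAP targets 9 were called lower in 2i-LIF and none higher (median -1.48 against -0.03 over all genes), led by F3 (-3.51), the receptor kinase gene Axl (-3.42), Ccdc80 (-3.37) and Igfbp3 (-3.29). Of 26 Hippo genes 4 were lower and none higher (median -0.30), Lats2 (-2.60), Amot (-2.07), the phosphatase gene Ptpn14 (-2.06) and Taok3 (-1.71), a share near the 12.3% called among all genes. Lats2 and Ptpn14 stand on both lists. Of 10 receptors 3 were lower (Itgb1 at -1.34, Itgb5 at -1.33 and Lrp1 at -1.11) and 1 higher, Itgb3 (1.64), with a median of 0.04. Of 15 SRF and TGF-beta targets 10 were lower and none higher (median -2.59), with Acta2 (-6.44), Tagln (-5.59), Egr1 (-4.71) and Fos (-3.63) the largest. The smooth muscle markers summed to 83.7 to 416 CPM in serum and 18.6 to 36.0 CPM in 2i-LIF, the fibroblast markers to 16.3 to 92.0 and 11.8 to 26.6 CPM and the pluripotency markers to 5676 to 15642 and 9800 to 15721 CPM. The pluripotency sums overlap, but of the 6 markers tested 4 were called higher in 2i-LIF and none lower. These were Nanog (mean 262 CPM in serum and 1204 CPM in 2i-LIF, 2.20), Zfp42, Tdh and Esrrb. The endothelial markers summed to 13.5 to 54.9 and 70.9 to 108 CPM, with Cdh5 at 0 in 2i-LIF. Of 3 tested 1 was called higher, Pecam1 (mean 22.6 CPM in serum and 74.1 CPM in 2i-LIF, 1.89). Pecam1 made up most of the 2i-LIF sum. In R10 it averaged 52.2 CPM in stem cells and 0 in progenitors. Called lower were Map2 (-2.49), 1 of 2 neuron markers tested, and Pax6 (-1.93), 1 of 4 neural progenitor markers tested. Their part was not tested.

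**Figure D5:**
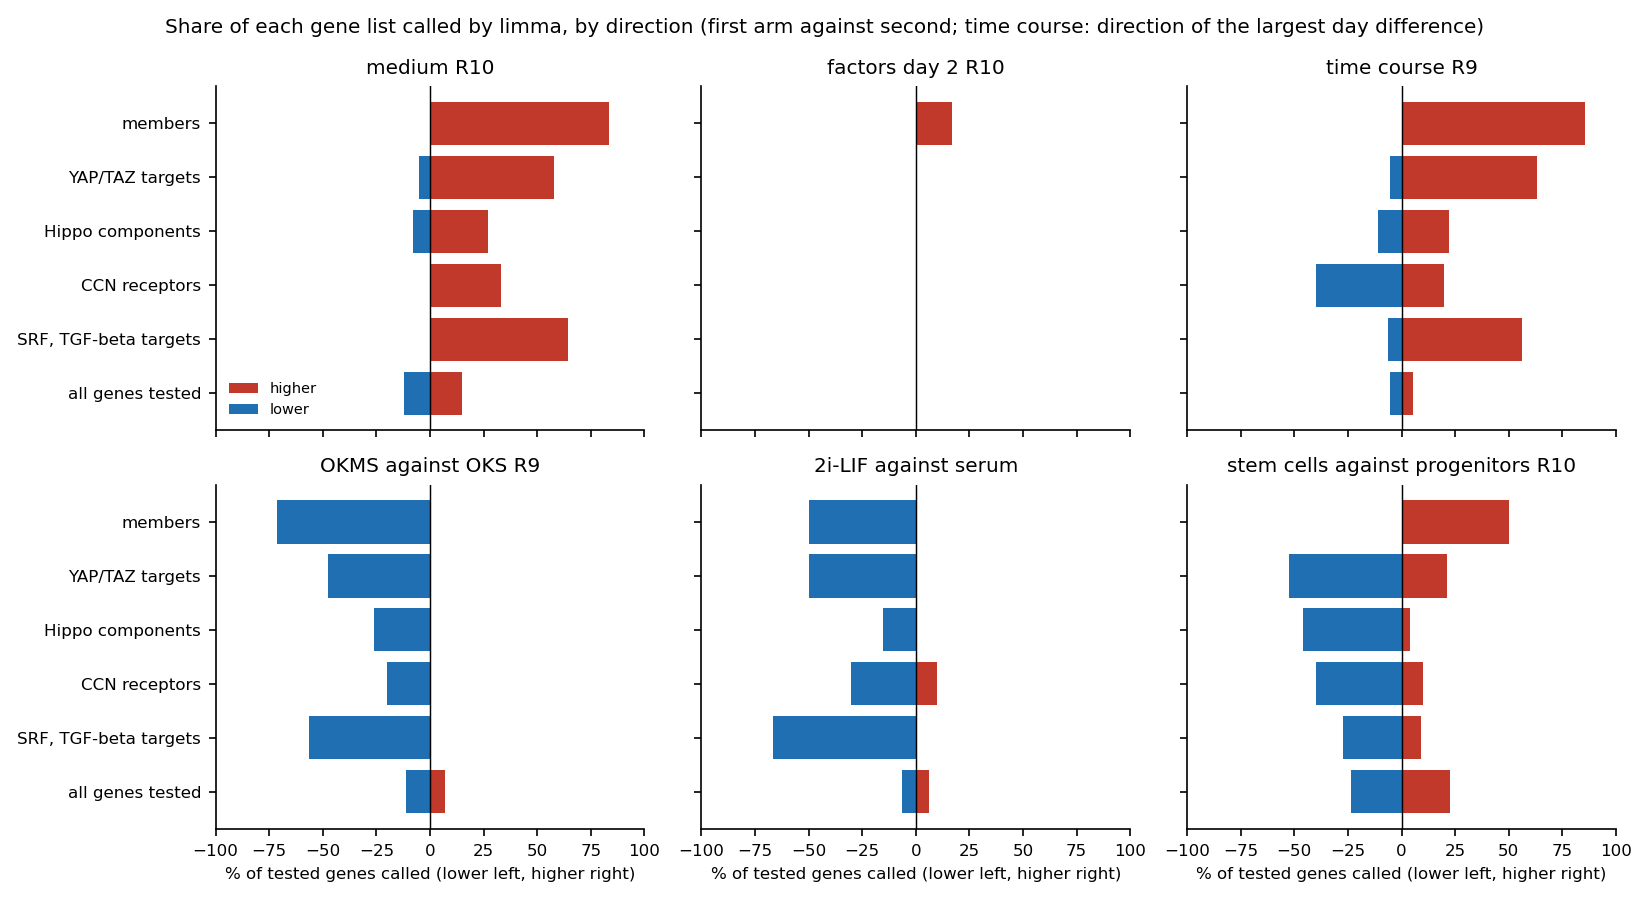
Share of each gene list called by limma in each comparison, in percent of the genes tested, with higher calls to the right of 0 and lower calls to the left. YAP targets and SRF and TGF-beta targets have 11 of 19 and 9 of 14 genes called higher with the change of medium and 9 of 18 and 10 of 15 called lower in 2i-LIF, and limma calls none of either list at day 2 with factors.

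The 2 ends of the path, progenitors and stem cells, were compared last. In R10, 2 of the 4 members tested were called higher in stem cells than in progenitors, where 45.8% of 15415 genes were called (22.4% higher, 23.5% lower). Amotl2 read 20.9 to 37.2 CPM in 7 stem cell libraries (median 26.4) and 7.62, 1.72, 7.47 and 2.92 CPM in 4 progenitor libraries (2.47 ± 0.29, limma adjusted p = 2.27e-06). Ccn2 read 7.83 to 14.8 CPM (median 12.7) against 1.27, 1.43, 8.79 and 12.9 CPM (1.29 ± 0.43, limma adjusted p = 0.0143), so the WT progenitors were low and the OKMS and OKS progenitors overlapped with stem cells. Without WT replicate 2 or 3 the call of Ccn2 was lost (adjusted p up to 0.0757). Ccn1 (5.60 to 24.2 against 5.40 to 15.2 CPM) and Tead1 (44.5 to 76.6 against 51.1 to 68.1 CPM) did not pass, and Ankrd1 was at 0 in all 11 libraries. The R9 libraries, 2 of stem cells and 4 of progenitors, gave another count: none of the 4 members was called with limma, against 36% of 15746 genes, and 1 had an unadjusted p under 0.05 (50.7% of all genes). Ccn2 had means of 5.15 and 4.48 CPM there (0.27, limma adjusted p = 0.726) and Amotl2 of 17.8 and 3.46 CPM (2.39, 0.0552).

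The mitochondrial share was 1.81 to 2.35% in the 6 numbered stem cell libraries, 0.124% in the one without a number and 0.153 to 1.12% in progenitors, and its part was not tested. The library without a number read 8.96 CPM of Ccn2 and 32.1 CPM of Amotl2, above both WT progenitor libraries. The list counts stand beside the 22.4% higher and 23.5% lower among all genes. Of 19 YAP targets 10 were lower and 4 higher (median -1.05 against 0.01 over all genes), led by Rbms3 (-6.45), Igfbp3 (-6.34), Ccdc80 (-4.70) and Fjx1 (-4.35). Of 26 Hippo genes 12 were lower and 1 higher (median -0.47), among them Dchs1 (-5.36), Amotl1 (-3.61), Amot (-3.25) and Fat4 (-2.64). Of 10 receptors 4 were lower and 1 higher (median -0.45). Of 11 SRF and TGF-beta targets 3 were lower and 1 higher (median -0.57), and for this list the share called lower is near that of all genes.

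Per length, the order of Ccn2 and Ccn1 depended on the transcripts counted. In R9 OKS cells in serum the median over 6 days was 982 TPM for Ccn2 and 809 TPM for Ccn1, in OKMS cells 149.6 and 199 TPM. The ranges of both genes overlap in each system (109 to 1438 and 170 to 1044 TPM in OKS). The Ccn2 sum holds a short non-coding model, described with the transcripts. With the full-splice match of each gene alone, Ccn1 had the higher median in both systems, 601 against 478 TPM in OKS and 117 against 81.4 TPM in OKMS, again with overlapping ranges. Ccn5 (143 TPM), Amotl2 (58.0), Tead1 (38.4), Ccn4 (5.29) and Ankrd1 (4.23) followed in OKS. In 2i-LIF Tead1 (median 14.7 TPM), Ccn2 (13.4) and Ccn1 (9.01) lay within each other's ranges, and Tead1 led in stem cells of both series.

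The long reads also give the transcripts behind these sums. For Ccn1 the leading model was a full-splice match of 2027 bases and 5 exons with an open reading frame of 379 residues, which held 62.5% of the gene's TPM over all libraries. The R10 libraries of day 18 differed in TPM share. A fragment of 543 bases with a frame of 115 residues held 62.8% in OKMS and 65.9% in OKS in serum. It held 69.1% in OKS in 2i-LIF, and the full match held 26.8, 20.9 and 24.7% in this order. TPM is scaled by length, so the larger share of a short fragment need not mean more reads than the full match. OKMS cells in 2i-LIF had the full match alone. Ccn1 had 16 gene reads in that library and 13 in OKS in 2i-LIF. Ccn5 was mainly a full-splice match of 1985 bases with a frame of 251 residues (76.5%). Ccn4 was mainly a coding transcript of 1990 bases outside the catalog (74.2%). For Ankrd1 the leading model by TPM share was a fragment of 412 bases (68.3%), and the full-length match of 1930 bases, 9 exons and 319 residues held 29.7%. The limit of length scaling holds here too. In the 5 R10 factor libraries in serum with Ankrd1 TPM above 0 (a sixth had a single gene read and no TPM) the full-length match had the higher median share, 56.2% against 43.8%.

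Ccn2 had a second transcript that set it apart. Beside the full-splice match (2343 bases, 348 residues, 49.9% of TPM), a non-coding model of 407 bases and 2 exons held 38.9%. It starts far upstream, at chr10:24428169-24598683, and ends at the last base of the gene. It was above 0 in 6 of 6 R9 OKS, 4 of 6 R9 OKMS and 4 of 8 R10 factor libraries in serum. It was at 0 in the 3 treated WT libraries, the 8 progenitor, 5 2i-LIF and 9 stem cell libraries. Within R9 OKS it took 28.7 to 51.6% of Ccn2 TPM. TPM is scaled by length, so a short model weighs more than its reads, and depth cannot be read from TPM: in libraries with little Ccn2 a 0 says little. The treated WT library of R9, with 299.9 CPM of Ccn2, and OKMS cells at day 4, with 348 CPM, had none of it either.

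Amotl2 and Tead1 were spread over many models. The leading Amotl2 model, a non-coding match of 669 bases, held 13.4% of its TPM overall and 31.5 to 48.4% in the treated WT libraries of R10. Tead1 had a coding model of 9593 bases and 12 exons (39.8%) and a non-coding one of 658 bases (21.8%). The latter differed by series: its median share was 44.1% in R9 progenitors and 0% in R10 progenitors.

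Genes with the most similar pattern were named by Pearson's r of log2(CPM + 1) over the 22 R9 libraries, with the r over the 23 R10 libraries beside it. All values within a series share its chemistry and its cell types. The pattern of Ccn1 was most like those of Clu (0.97 in R9, 0.92 in R10), Pdlim2 (0.97, 0.95) and Acta2 (0.97, 0.96), and that of Ccn2 like Ccn1 (0.96, 0.92), S100a11 (0.95, 0.79) and Itgb5 (0.95, 0.89). Ccn5 was most like Art3 (0.98, 0.91), Pdpn (0.97, 0.87) and Gm14866 (0.97, 0.91), and Ccn4 like Klhdc8a (0.97, 0.88), Clu (0.96, 0.85) and Id1 (0.96, 0.81). Amotl2 was most like Osbpl9 (0.93, 0.93), Fam129b (0.92, 0.83) and Pnpla2 (0.92, 0.79). Ankrd1 went with Car4 (0.92, 0.84), Igf2 (0.89, 0.88) and Lin28a (0.88, 0.45), and between Ankrd1 and Ccn5 r was 0.0014 in R9 and 0.17 in R10. The nearest genes of Tead1 reached 0.82 (Marveld1), 0.81 (Dhrs3) and 0.81 (an unannotated gene) in R9, and 0.47, 0.52 and 0.55 in R10.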

How the data were processed

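The authors deposited gene levels as CPM and transcript levels as TPM for 45 long-read libraries, 22 R9 and 23 R10. The submitters' processing notes name minimap2 2.24-r1122 and mm10; whether counting used strand is not given in the sources used here. Transcript models carried SQANTI3 classes, per the file headers. Every deposited CPM value was a whole multiple of 1 read within 0.02 reads (100% of values), which gave read counts and depth. There were 13 further gene columns that matched no sample and were not used, and 20 gene names had been turned into numbers.

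Members and lists were chosen with earlier results of these data known. log2(CPM + 1) was fitted with limma 3.58.1 in R 4.3.3 (lmFit, eBayes with trend) over genes with at least 1 CPM in as many libraries as the smaller arm, two-sided. A call needed an adjusted p (Benjamini-Hochberg, over all genes) under 0.05 and a difference of at least 1. The time course used the F test over days with the system as a term, OKMS against OKS used day and the media the pair as a block. Other settings tried were no filter, a pseudocount of 0.25, 5 CPM as the minimum, quantile normalization, median centring, edgeR 4.0.16 and DESeq2 1.42.0 on the recovered reads, the other chemistry, other arms or blocks, and leaving out each library, day or pair. The scripts were tested on simulated data. Named are all members, up to 4 called genes per list with the largest difference, 3 genes of highest r per member (mean of at least 5 CPM in R9) and up to 2 transcripts per member. Of the lists, Foxf2, Myh11 and Dcx were not analysed here, and a further listed marker is not reported here and enters no sum. Floors of 3 reads and the exact counting intervals cover counting error only, and they treat reads as independent, also in the PCR cDNA of R10.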

Additional observations from a re-analysis of the deposited data

Results flagged for a closer look

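In 4 of 21 groups of 4 to 7 libraries, a single library lay far from the others (Dixon's criterion at 95%). No chance rate can be set beside this count. A lone read among libraries at 0 always passes the criterion, and a group wholly at 0 never can. Ccn4 read 1.34 CPM in R9 WT progenitor replicate 1, a single read, and 0 in the other 3 R9 progenitor libraries. Ccn4 also read 1.34 CPM in R10 O4G stem cell replicate 2, with the next library at 0.387 CPM. Ccn5 read 1.87 CPM in the R10 R1 stem cell library without a number, with the next at 0.656 CPM. Tead1 read 44.5 CPM in R10 R1-Clone3 stem cell replicate 2, and 65.5 to 76.6 CPM in the other 6 R10 stem cell libraries. Only the last of these rests on more than a few reads.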

How the results depend on the processing

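The counts of members called moved with the filter, the tool, the series and the libraries included. Without a filter on low values they fell from 5 to 3 (medium), 1 to 0 (factors), 6 to 3 (time course), 5 to 2 (OKMS against OKS) and 3 to 1 (2i-LIF), and with a minimum of 5 CPM, which tests fewer members, from 5 to 4 (medium) and 3 to 2 (2i-LIF). With DESeq2 the time course called 5 in place of 6, without Ccn4 (adjusted p = 0.0552), and the R10 pairs of the media called 2. In the R9 libraries the medium comparison called 3, the factor comparison 0 and the comparison of stem cells with progenitors 0 (main value 2). The R10 time course called 0, the R10 pairs of OKMS and OKS 0, OKMS against OKS with day 0 called 3, and the R1 library without a number, alone in its arm, against WT progenitors 1. At day 2 with factors, quantile normalization called 0, and median centring, DESeq2 and both series together called 2 each. With each library, day or pair left out, the counts ranged from 0 to 3 (medium), 0 to 1 (factors), 4 to 6 (time course), 4 to 5 (OKMS against OKS), 3 to 4 (2i-LIF) and 1 to 2 (stem cells).

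The differences that changed sign were all of members that were not called: at day 2 Ccn1 relative to the progenitors (-0.43, chosen after the data were seen), Ccn4 in R9 (-0.71), and Ccn4 (-0.16 to 1.88) and Tead1 (-0.059 to 0.70) with each library left out; Ankrd1 in OKMS against OKS (-0.0031 to 0.73 with each day left out); in 2i-LIF Tead1 in the R9 pairs (-0.0076) and Ccn4 in the R10 pairs (0.70); and in stem cells Ccn1 in R9 (-1.25) and against the library without a number (-0.18), and Tead1 in R9 (-0.55). The cause was not tested.

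Calls over all genes moved as well: at day 2 with factors from 114 to 1 without a filter, 0 in R9, 334 with edgeR, 482 with DESeq2 and 399 with median centring, and in the medium comparison from 3940 to between 0 and 1141 with each library left out. In the time course the count over all genes went from 2078 (10.7%) to 601 (3.23%) without day 20 and to 4573 (23.6%) with edgeR. In the medium comparison the replicate block, the label's number as a term, called the same number of members, 5, and 5605 genes in place of 3940. Deviations of same-numbered libraries correlated at 0.47 over 14688 genes, and their mitochondrial shares went together (0.273 and 0.319% for number 2, 0.153 and 0.165% for number 3). With only 2 pairs and no label for it, whether a number marks a shared culture or batch cannot be told. Depth limits Ankrd1 (at most 34 reads in a library) and Ccn4 in most conditions.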
